A study of Homo sapiens with 2 samples.

Results

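Of 11807 distinct anchors that a METTL3 HiChIP library of control fibroblasts listed on the 22 autosomes, 3561 were overlapped by no anchor of the matching library of senescent cells. An anchor is a genomic interval listed as an end of a chromatin contact. The 3561 are called control-only anchors here, and the other 8246 control anchors, each overlapped by at least 1 bp of a senescent anchor, are called anchors listed in both. The members were chosen by the positions of the anchors in both files, with the anchors of both ends of each control contact pooled, and the whole series held 84789 anchors in both files and on all chromosomes. The control-only share of 30.2% is what the rule picked and supports no statement by itself.

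METTL3 is the catalytic subunit of the complex that writes N6-methyladenosine into nuclear RNA as it is made, and it can be found on chromatin at transcribed genes. HiChIP joins DNA ends that lie close in the nucleus and then recovers the joined pieces with an antibody, so that each paired-end tag (PET) reports a contact with protein-associated chromatin at one of its ends or nearby. Senescence is a lasting arrest of the cell cycle in which fibroblasts change their chromatin, matrix genes and secreted proteins. Those general facts are background and were not tested here.

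Both libraries came from IMR90, human embryonic lung fibroblasts of genotype WT grown at low oxygen. The control library came from cells labelled control. The senescent library came from cells with inducible ER: RAS, the estrogen receptor fused to H-RASG12V. Whether the control cells carried the uninduced fusion, and how long it was induced, is not given in the sources used here. There was 1 library per group, so no result below has a replicate check and no test of a difference between states was possible. Intervals are 95% intervals for counting error alone, and anchors of 1 library are not replicates of a condition.

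On the autosomes the control file listed 14343 PETs in 12194 interactions and the senescent file 182707 PETs in 149258 interactions between 71825 anchors. The senescent anchors covered 265 Mb, and 88.8% of them were overlapped by no control anchor. These totals are not sequencing depths, since only contacts between 2 anchors were listed. A control-only anchor is therefore a site that the larger table does not list, which sets no upper limit on its contacts in senescent cells. No sequence is shown, since no hg19 genome was used.

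Control-only anchors were found on every autosome, with the highest share on chromosome 4 and the lowest on chromosome 19. On chromosome 4, 341 of 819 control anchors were control-only (41.6%, 38.2 to 45.1%, exact Clopper-Pearson interval). Chromosomes 7 (256 of 700, 36.6%, 33.0 to 40.3%) and 21 (44 of 134, 32.8%, 24.97 to 41.5%) came next. The intervals of chromosomes 4 and 7 lay above the share over all autosomes, and that of chromosome 21 held it.

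The lowest shares were on small chromosomes with few control anchors. Chromosome 19 had 6 control-only anchors among 62 (9.68%, 3.63 to 19.9%), chromosome 22 had 11 among 68 (16.2%, 8.36 to 27.1%) and chromosome 16 had 30 among 148 (20.3%, 14.1 to 27.7%). These intervals lay below the share over all autosomes. For each control anchor there were 48.6 senescent anchors on chromosome 19 and 26.4 on chromosome 22, against 3.54 on chromosome 4. Both tables enter this ratio. Senescent anchors numbered 51.1, 52.5 and 31.2 per Mb on chromosomes 19, 22 and 16, against 15.2 on chromosome 4. Control anchors were sparser on these 3 chromosomes than on any other autosome, at 1.05, 1.99 and 1.64 per Mb. The senescent density of chromosome 16 was close to that of chromosome 15 (30.3 per Mb), where the control-only share was 27.8%.

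Across the 22 autosomes the control-only share was lower where the senescent anchors stood closer together. With senescent anchors per Mb Pearson's r was -0.81 and Spearman's rho -0.67. With RefSeq protein-coding genes per Mb (counts from GRCh38.p14, length from the first to the last senescent anchor) r was -0.80 and rho -0.62. With control anchors per Mb the sign was the opposite, at r = 0.78 and rho = 0.60, so the share was higher where control anchors stood closer together. Over the 16 autosomes with at least 300 control anchors the relation with senescent anchors had r = -0.66 and rho = -0.57. Chromosomes share libraries, base composition and gene content, and a denser senescent table overlaps more sites by construction, so these values are descriptions.

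**Figure D1:**
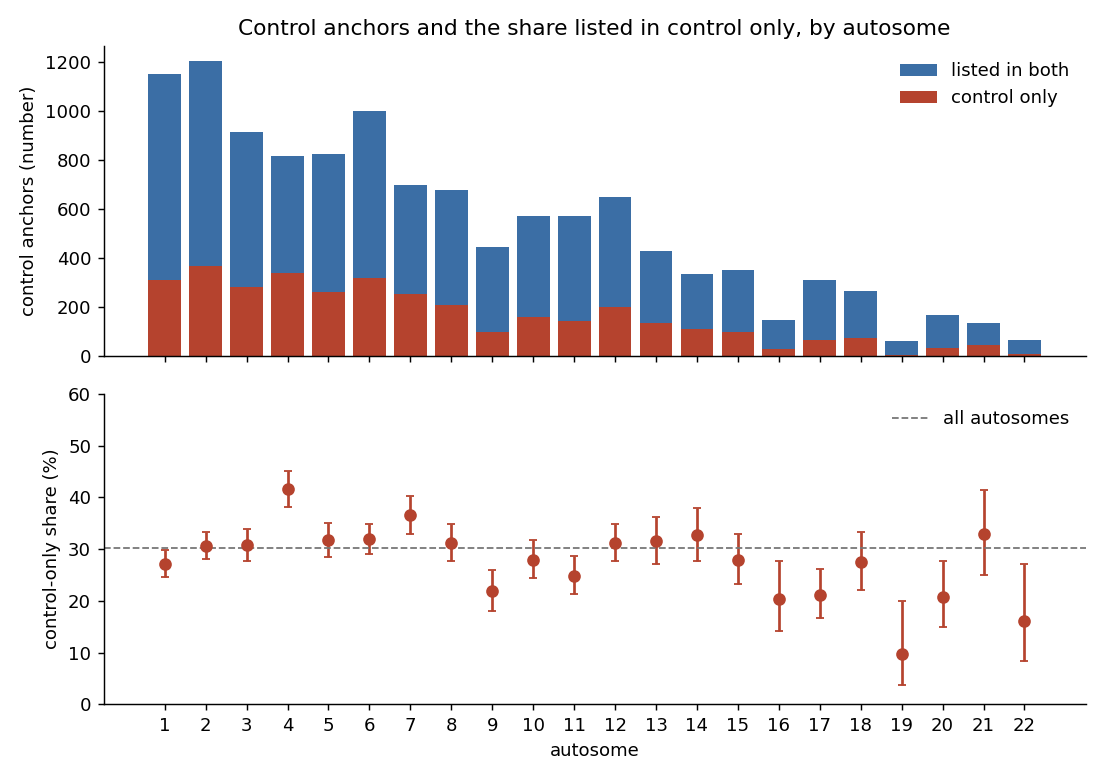
Upper panel, number of control anchors on each autosome, split into control-only anchors and those listed in both. Lower panel, the control-only share in percent with its 95% exact interval, and the share over all autosomes as a dashed line. Chromosome 4 stands highest at 41.6% and chromosome 19 lowest at 9.68%.

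Most control-only anchors lay close to a senescent anchor. The median edge-to-edge distance was 10.1 kb (9.30 to 10.8 kb, binomial order-statistic interval), with a lower quartile of 3.29 kb and an upper quartile of 31.1 kb. It was 16.2 kb when senescent anchors with a single PET were left out, and 21.2 kb when control anchors within 5 kb of a senescent anchor were no longer counted as control-only. Of the 3561, 1199 (33.7%, 32.1 to 35.2%) had a senescent anchor within 5 kb and 3289 (92.4%, 91.4 to 93.2%) had one within 100 kb.

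At the edge of the rule, 93 control-only anchors abutted a senescent anchor, sharing an edge position without a shared base. The next smallest gap was 5 bp, and 204 control-only anchors had a gap of at most 500 bp. On the other side of the rule the smallest overlap was 59 bp, and 35 of the anchors listed in both were overlapped by at most 500 bp. The median anchor listed in both was covered by senescent anchors over 100% of its length.

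The anchors listed in both also had senescent anchors nearby other than those on top of them. Their median distance to the nearest senescent anchor that did not overlap was 5.62 kb (5.48 to 5.77 kb), shorter than the 10.1 kb of control-only anchors, although the quantities differ. Within 100 kb on each side, control-only anchors had a median of 6 senescent anchors and anchors listed in both had 10, overlapping ones left out. Other control anchors within 100 kb numbered 3 in the median for both kinds. No other control anchor lay within 100 kb of 12.1% (11.05 to 13.2%) of the control-only anchors and 9.42% (8.80 to 10.1%) of those listed in both, so control-only anchors stood alone in the control library slightly more often.

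**Figure D2:**
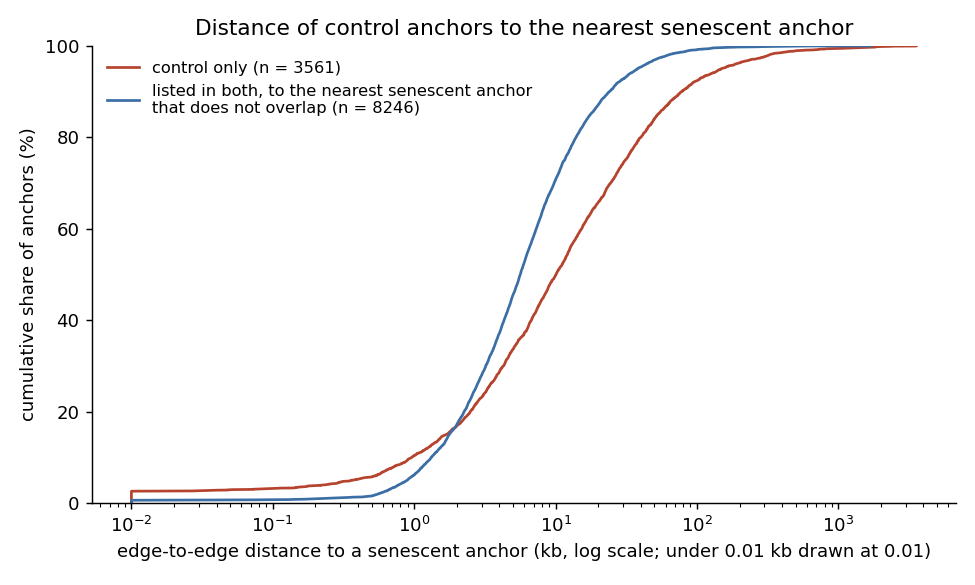
Cumulative share of control anchors in percent by edge-to-edge distance to the nearest senescent anchor in kb, on a log axis, for 3561 control-only anchors and for 8246 anchors listed in both (to the nearest one that does not overlap). The curves cross near the short end, and the control-only curve reaches its middle at 10.1 kb against 5.62 kb.

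A small part of the control-only anchors lay in regions with hardly any senescent anchors. Farther than 100 kb from any senescent anchor were 272 of them, 2.30% of all control anchors, on 18 autosomes. Chromosomes 3 and 4 held 35 each, chromosome 1 held 34 and chromosome 6 held 29. No senescent anchor lay within 1000 kb of 20 control-only anchors, and the same was true, leaving out overlapping ones, of 1 anchor listed in both.

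These remote anchors had few contacts. They had a mean of 1.49 PETs and 1.39 partners, and none had more than 5 PETs. Of their 378 partners, 285 (75.4%) were control-only, against 25.7% of the 2504 partners of control-only anchors within 5 kb of a senescent anchor. Contacts span at most 2 Mb, so the anchors of a contact share much of their surroundings.

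The 5 farthest anchors rested on single PETs. On chromosome 5, the anchors at 27240840 to 27243924 and 27314602 to 27317795 (hg19) lay 3557 and 3529 kb from the nearest senescent anchor. They were joined to each other by 1 PET over 73.8 kb and had no other partner. On chromosome 13, the anchors at 83320596 to 83327661, 83290542 to 83292682 and 83199701 to 83203408 lay 2402, 2372 and 2281 kb away, also with 1 PET each. These 3 were not joined to one another, and their contacts spanned 749, 499 and 871 kb. Each of the 5 had a control-only partner, and no senescent interaction spanned any of them.

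Most control anchors of either kind stood under senescent contacts. At least 1 senescent interaction spanned 3387 of the control-only anchors (95.1%, 94.4 to 95.8%), reaching from one side of the anchor to the other without an end on it. For anchors listed in both the share was higher, at 8156 of 8246 (98.9%, 98.7 to 99.1%). The median number of such interactions was 12 (11 to 12) for control-only anchors and 22 (21 to 22) for anchors listed in both. In 334 cases (9.38%) more control than senescent anchors lay within 500 kb, against 2.24% of the anchors listed in both.

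The control-only share was lower where more senescent anchors stood around the site. Where no senescent anchor lay within 500 kb, other than overlapping ones, 39 of 44 control anchors were control-only (88.6%, 75.4 to 96.2%). The share was 71.2% with 1 to 5 such anchors, 46.1% with 11 to 20, 32.1% with 21 to 40 and 17.5% (16.4 to 18.6%) with over 40. This is the measure nearest to the rule, and it is given as a description.

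By contacts in the control library alone, control-only anchors were somewhat weaker. They had a mean of 2.14 PETs and 1.88 partners, against 2.55 PETs and 2.15 partners at anchors listed in both, a ratio of 0.839 for PETs (0.817 to 0.861, exact conditional binomial interval) and 0.874 for partners (0.850 to 0.899). Each PET and each contact is counted at both of its anchors, so the intervals of these ratios are too narrow. The median was 2 PETs for both kinds. A single PET held 1679 control-only anchors (47.1%, 45.5 to 48.8%) and 41.2% of those listed in both (40.1 to 42.2%).

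The difference was clearest among the strongest sites. The control-only share was 33.1% (31.8 to 34.4%) among control anchors with 1 PET, 29.3% (27.0 to 31.6%) with 3 PETs and 22.8% (20.5 to 25.3%) with 5 to 9. Of 170 control anchors with at least 10 PETs, 16 were control-only (9.41%, 5.48 to 14.8%). In these libraries, strong control contact sites were thus listed in the senescent file more often than weak ones. Strong anchors can stand side by side and contact each other, so these intervals are too narrow for independent anchors. Width was not held fixed here.

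Width moved with both measures. Control-only anchors had a median width of 2591 bp (2564 to 2630 bp), and those listed in both 2766 bp (2741 to 2792 bp). Of the control-only anchors 113 (3.17%) were wider than 5 kb, against 9.46%. A wider interval is overlapped more easily, and the control-only share was 34.6% among anchors under 2000 bp and 7.58% among those of 6000 bp or more.

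Within classes of like width the mean PETs were close for narrow anchors and lower at control-only anchors for wide ones. Under 2000 bp the means were 1.86 PETs at control-only anchors and 1.82 at those listed in both, and from 2000 to under 2500 bp they were 1.99 and 2.00. From 3000 to under 4000 bp they were 2.23 and 2.56, from 4000 to under 6000 bp 2.76 and 3.50, and from 6000 bp on, with 32 control-only anchors, 3.88 and 5.73. The part of width in the difference of PETs was not tested beyond these classes.

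**Figure D3:**
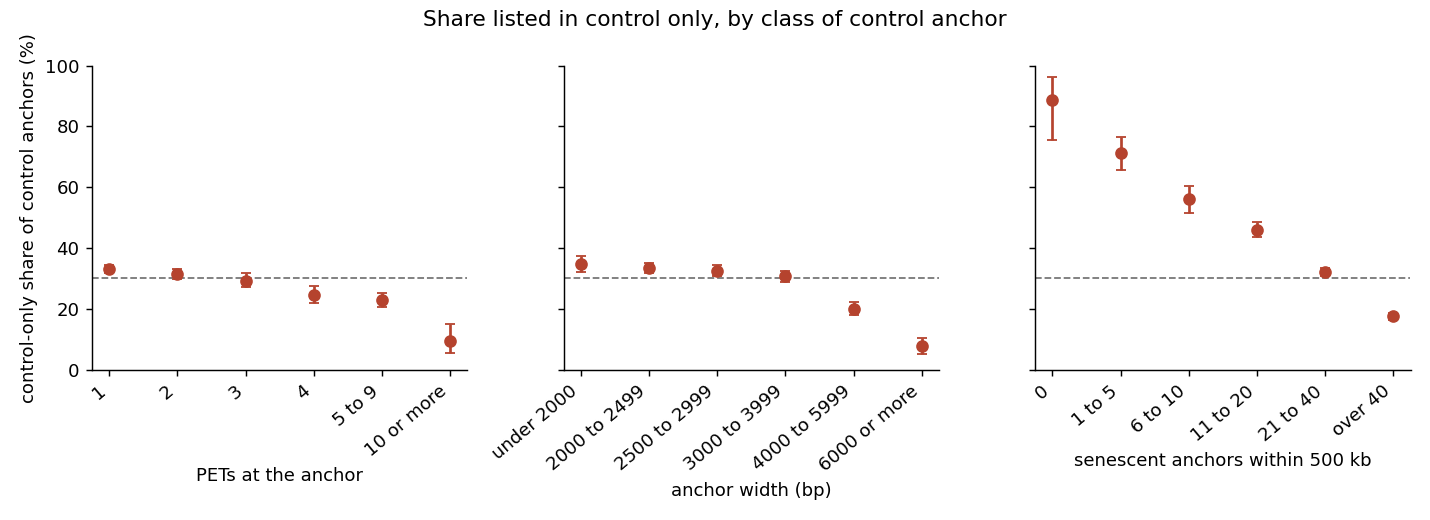
Control-only share of control anchors in percent, with 95% exact intervals, by PETs at the anchor, by anchor width in bp and by the number of senescent anchors within 500 kb (overlapping ones left out). The dashed line is the share over all autosomes. The share goes from 33.1% to 9.41% with PETs, from 34.6% to 7.58% with width and from 88.6% to 17.5% with the senescent surroundings.

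Contacts with a control-only anchor made up 5442 of the 12194 control interactions (44.6%, 43.7 to 45.5%). In 1243 both ends were control-only, in 4199 1 end was, and 6752 joined anchors listed in both. Median spans were 76.3 kb (66.7 to 88.1 kb) with both ends control-only, 108 kb (100.4 to 115 kb) with 1 end and 75.5 kb (72.3 to 79.5 kb) with none. Contacts between the kinds thus had the longest median span, while contacts within each kind had like spans. These medians do not take into account how far apart the anchors of each kind stand. From 100 to 500 kb, 8.08% of mixed pairs were joined, between the 6.94% of control-only pairs and the 8.77% of pairs listed in both. Beyond 500 kb the shares were 1.51%, 1.65% and 1.57% in that order.

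Repeated contacts made up a smaller share of the contacts of control-only anchors. At least 2 PETs were found for 10.5% (8.89 to 12.4%) of interactions with both ends control-only, 11.3% (10.4 to 12.3%) with 1 end and 15.0% (14.2 to 15.9%) with none. Under 20 kb these shares were 26.2% (21.2 to 31.7%), 32.6% (29.4 to 36.0%) and 34.7% (32.3 to 37.2%). Among spans below 500 kb the shares lay farthest apart in ratio from 100 to 500 kb, at 1.70% (0.628 to 3.67%), 4.84% (3.80 to 6.07%) and 6.12% (5.14 to 7.23%). From 20 to 100 kb they were 12.5%, 10.98% and 15.3%. Between 500 kb and 2 Mb none of the 210 interactions with both ends control-only had at least 2 PETs, which allows a share of up to 1.74%, and 1.20% of those between anchors listed in both did.

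The partners of control-only anchors were control-only more often than those of the other anchors. Of 6685 partners, counted from each control-only anchor, 2486 (37.2%) were control-only, against 23.7% of the 17703 partners of anchors listed in both. Among the 3561 anchors, 963 (27.0%) had control-only partners alone, 1686 (47.3%) had partners listed in both alone, and 912 (25.6%) had both kinds.

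The anchors standing around a control-only anchor were themselves more often control-only. Among all control anchors standing at the same distances, joined or not, 37.7% were control-only around a control-only anchor and 24.9% around an anchor listed in both, with the distance classes weighted as in the joined partners. The share among joined partners (37.2% and 23.7%) was close to, and in both cases just below, that among anchors at hand. Pooled over distances with this weighting, joined partners were thus no more often control-only than the anchors at hand, for either kind. By distance class, the joined share for control-only anchors was just above that at hand except from 100 to 500 kb (32.4% against 35.8%). Under 20 kb it was 41.9% against 41.1%, from 20 to 100 kb 38.9% against 38.6%, and beyond 500 kb 37.5% against 35.5%. For anchors listed in both it was lower in every class.

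Pair by pair, control-only anchors were joined to each other about as often as any other control anchors at short range. Under 20 kb, 290 of 509 pairs of control-only anchors were joined (57.0%, 52.5 to 61.3%), 55.0% (52.4 to 57.5%) of mixed pairs and 56.8% (54.9 to 58.7%) of pairs listed in both. From 20 to 100 kb the shares were 23.3% (21.3 to 25.4%), 23.03% (21.9 to 24.2%) and 24.99% (24.1 to 25.9%). From 100 to 500 kb pairs of control-only anchors were joined less, at 6.94% (6.26 to 7.68%) against 8.77% (8.42 to 9.13%) for pairs listed in both. Beyond 500 kb the shares were 1.65% (1.44 to 1.89%) and 1.57% (1.47 to 1.68%). Pairs share anchors, so these intervals are too narrow for independent pairs.

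**Figure D4:**
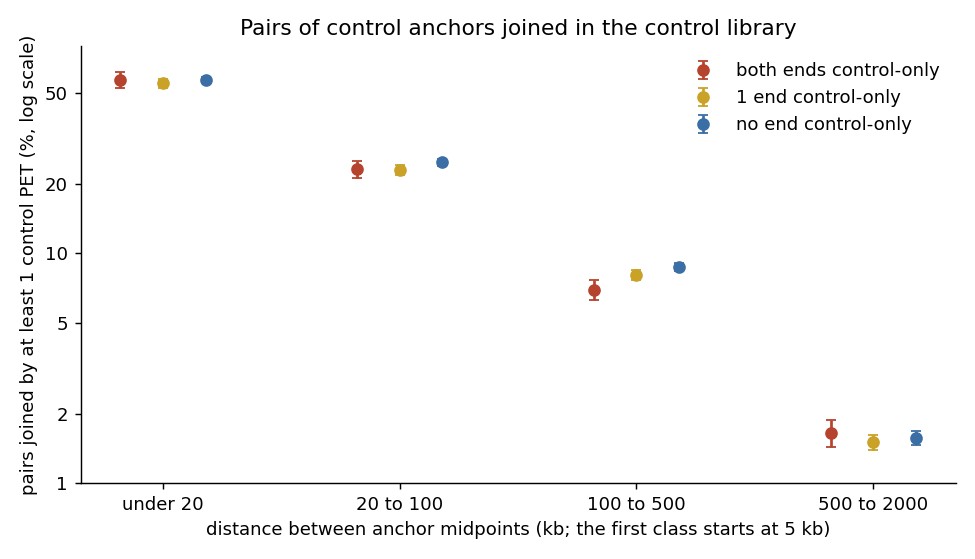
Share of pairs of control anchors joined by at least 1 control PET, in percent on a log axis with 95% exact intervals, by the distance between them in kb and by how many of the 2 ends are control-only. The 3 kinds of pair lie together under 20 kb (57.0, 55.0 and 56.8%) and separate most from 100 to 500 kb (6.94, 8.08 and 8.77%).

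Contacts with more control-only ends were matched nearby in the senescent table less often, and most of those with a control-only end had 1 such end. A senescent interaction with anchors within 25 kb of both ends existed for 222 of the 1243 interactions with both ends control-only (17.9%, 15.8 to 20.1%), for 44.2% (42.7 to 45.7%) with 1 such end and for 72.9% (71.8 to 73.9%) with none. For spans under 20 kb these shares were 24.1%, 67.1% and 94.4%, and from 20 to 100 kb they were 25.8%, 62.4% and 90.1%. Beyond 500 kb they were 1.43%, 11.4% and 19.3%. The rule itself removes senescent anchors from the ends of the first kinds, so the order follows in part from how the anchors were chosen.

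The control anchors formed 2086 connected groups, in which every anchor is reached from every other through control contacts. Of these, 207 groups held control-only anchors alone and took in 475 of the 3561 (13.3%). Most were single contacts: 171 were pairs of anchors, and the largest had 9 anchors. The remaining 3086 control-only anchors belonged to groups with at least 1 anchor listed in both.

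Control-only anchors lay mostly alone or in small clusters between anchors listed in both. Chained with gaps of at most 100 kb they formed 2092 clusters, of which 1320 were single anchors and 436 were pairs. Another control-only anchor lay within 100 kb of 2241 of them (62.9%, 61.3 to 64.5%). For the anchors listed in both, which are more numerous, that share was 84.4%. By 1-Mb windows, 3254 (91.4%) shared a window with an anchor listed in both, and 55 lay in the 28 windows with control-only anchors and no senescent anchor.

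At the other extreme, 84 clusters had at least 5 control-only anchors and held 537 of them, and 4 clusters had at least 10. Large clusters were not particular to control-only anchors. The largest had 27 of them, and the largest cluster of the more numerous anchors listed in both had 26. Counts of clusters by size are not given for the latter, so no wider comparison of the kinds is made. Gene names given for these places are general knowledge of the hg19 map, as background. No hg19 annotation was used, and overlap of anchors with exons, introns or promoters was not analysed here.

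The cluster with the most members was on chromosome 7 at 79846864 to 80644894, a region that holds CD36, a scavenger receptor that takes up fatty acids, and SEMA3C, a secreted semaphorin. It had 27 control-only anchors with 1 to 9 PETs (median 4), 8 anchors listed in both and 24 senescent anchors over 798 kb. Its 27 anchors took part in 66 control interactions, 26 of them among themselves with 35 PETs. Inside the region the control library had 43 interactions with 52 PETs, and the far larger senescent table had 20 with 24 PETs. The 4 anchors with the longest distances, from 80240127 to 80273043 and up to 85.2 kb from a senescent anchor, had 4 to 7 PETs each.

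The cluster with the most PETs was on chromosome 2 at 189847410 to 190307413, where the collagen genes COL3A1 and COL5A2 stand side by side. COL3A1 encodes the chain of type III collagen and COL5A2 a chain of type V collagen, both of them fibrillar collagens that fibroblasts lay down in the matrix. Its 20 control-only anchors had 3 to 15 PETs (median 7.5) and a median of 7.5 partners, against a median of 1 partner over all control-only anchors. They summed to 148 PETs, took part in 99 interactions and were joined to each other 33 times with 39 PETs. Inside the 460.0 kb there were 83 control interactions with 95 PETs and 19 senescent interactions with 25 PETs.

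Within that cluster, 12 control-only anchors followed each other from 189882392 to 190023385 with no anchor listed in both between them. This stretch of 141.0 kb was singled out after its values were seen. It held 1 senescent anchor and no senescent interaction, while 17 control interactions with 22 PETs lay inside it. The senescent contacts of the region ran over it: 16 senescent interactions spanned the stretch, as did 23 control interactions.

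**Figure D5:**
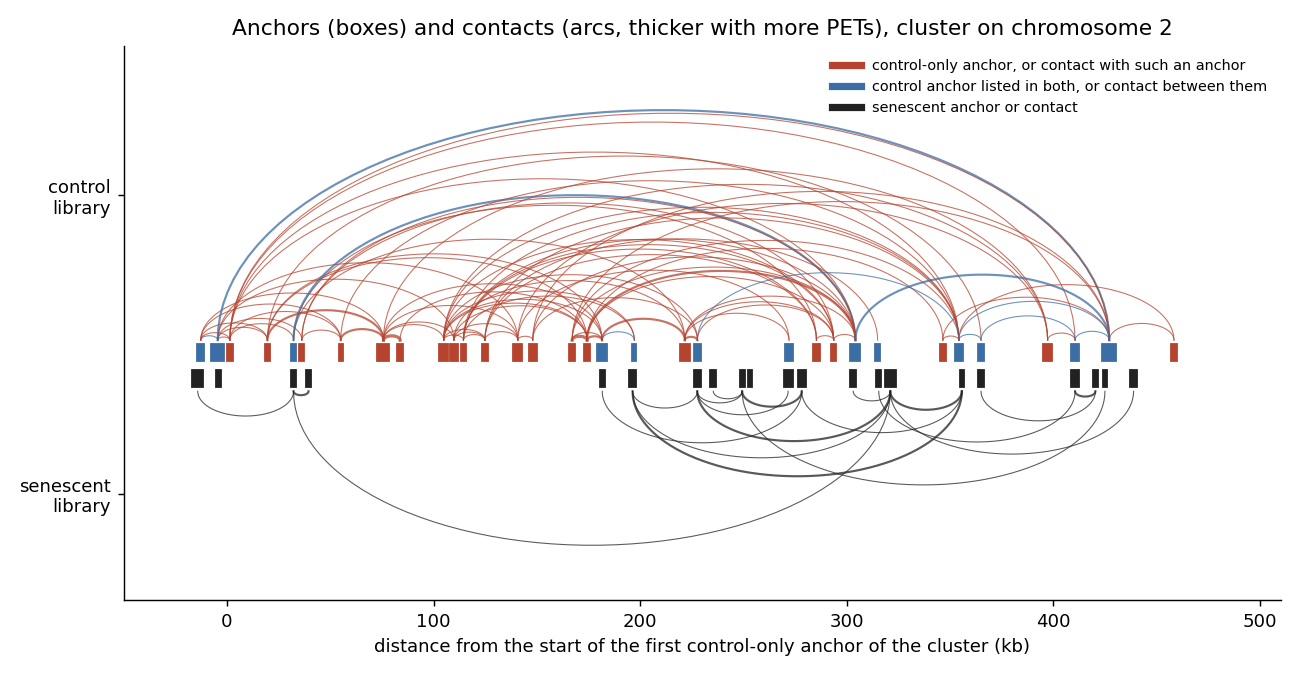
Map of the cluster on chromosome 2, with position in kb from the start of its first control-only anchor. Boxes are anchors and arcs are contacts, thicker with more PETs, with the control library above the line and the senescent library below. Control-only anchors fill a stretch of 141.0 kb in which the senescent library has 1 anchor, and arcs of the control library cross it in number.

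The other large clusters had fewer members or fewer PETs. On chromosome 8 at 106284280 to 106762831, over most of ZFPM2, a cofactor of GATA transcription factors, 19 control-only anchors had 1 to 9 PETs (median 3), with 41 control interactions and 13 senescent interactions inside. On chromosome 6 at 55528742 to 55967759, where BMP5, a ligand of the TGF-beta superfamily, lies, 12 control-only anchors had 1 to 4 PETs. That region held 3 senescent anchors, 10 control interactions and no senescent interaction. On chromosome 4 at 114356380 to 114656089, over the kinase gene CAMK2D, 9 control-only anchors had 1 to 6 PETs, with 16 control and 4 senescent interactions inside. It was 1 of 3 clusters with 9 control-only anchors and is named as the one whose anchors had the most PETs. The 3 did not look alike. The cluster on chromosome 12 at 78117463 to 78458054 had 8 control interactions and no senescent interaction inside. The cluster on chromosome 5 at 95270305 to 95580282 had 18 senescent anchors and 8 control against 12 senescent interactions, and none of its control-only anchors were joined to each other. Of the 84 clusters with at least 5 control-only anchors, 76 had more control than senescent interactions inside, 2 had as many and 6 had fewer. The clusters were chosen for their control-only anchors, which bears on that count.

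Followed in the order of the control anchors, control-only anchors formed 2038 runs, 1265 of them of 1 anchor. The 3 longest were in sparse regions, unlike the collagen cluster. On chromosome 1 from 187622697 to 192509852, 14 control-only anchors with 28 PETs stood over 4887 kb with 5 senescent anchors. On chromosome 8 from 68611619 to 72768815 it was 14 anchors with 25 PETs against 22 senescent anchors, and on chromosome 3 from 172504343 to 175390164 it was 13 with 27 PETs against 10. Inside the run on chromosome 8 there were more senescent than control interactions, 21 against 8. Inside the runs on chromosomes 1 and 3 there were fewer, 1 and 3 against 10 in each. The run on chromosome 8 thus lay among senescent anchors that it did not touch, from 0.086 to 146 kb away, whereas on chromosome 1 the farthest anchor of the run was 1414 kb from one.

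The control-only anchor with the most PETs was on chromosome 6 at 56606221 to 56609122, within DST, which encodes dystonin, a large linker of the cytoskeleton. It had 18 PETs with 8 partners, all of them listed in both. The nearest senescent anchor, at 56613754 to 56618413, was 4.63 kb away and had 6 PETs, and 24 senescent interactions spanned the site. Among the anchors listed in both, 11 had at least 18 control PETs.

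Next came a group on chromosome 4 within RAPGEF2, which encodes an exchange factor for Rap GTPases. The anchors at 160216083 to 160221978 and 160201867 to 160206923 had 17 and 14 PETs, with 5 of 7 and 4 of 4 partners control-only. The interaction between them had 7 PETs, the most of any contact between 2 control-only anchors, with a deposited significance value of 0.000867. Together with 4 neighbours between 160187362 and 160230884 they had 9 interactions among themselves with 23 PETs. No senescent anchor lay within 25 kb of the interaction with 7 PETs, and the nearest one, at 160278424 to 160283434, had 3 PETs.

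Further anchors on chromosome 2 belonged to the collagen cluster. Those at 189920275 to 189926087, 190020126 to 190023385 and 189950184 to 189954482 had 15, 14 and 11 PETs and 11, 10 and 11 partners, of which 8, 8 and 6 were control-only. They lay 32.3, 4.41 and 62.2 kb from the nearest senescent anchor, and those nearest anchors had 1 or 2 PETs. With 11 partners, the first and the last had the most partners of any control-only anchor, while the highest number among anchors listed in both was 15.

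The remaining anchors of the first 10 differed in their surroundings. On chromosome 11 at 10282040 to 10286683, within SBF2, an anchor had 14 PETs and 10 partners, 8 of them listed in both, and 41 senescent interactions spanned it. On chromosome 12 at 78332197 to 78344663, within NAV3, which encodes a microtubule-associated protein, the widest control-only anchor (12467 bp) had 11 PETs and lay 48.5 kb from a senescent anchor. On chromosome 1 at 145109059 to 145111429 an anchor with 11 PETs lay 1.04 kb from a senescent anchor that had 11 PETs of its own. On chromosome 6 at 113423080 to 113427121 an anchor had 10 PETs with 9 partners, 6 of them control-only, and was the one with the most partners among the 7 control-only anchors with 10 PETs. Thus the strongest control-only anchors were in part isolated from senescent anchors and in part next to one.

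The genes named at these places are longer than the median gene, but they form a selected list. They were named from general knowledge, and several of the listed places were given no gene. In RefSeq's GRCh38.p14 the gene lengths are 641 kb for NAV3, 526 kb for SBF2, 497 kb for DST, 486 kb for ZFPM2, 409 kb for COL5A2, 311 kb for CAMK2D and 257 kb for RAPGEF2. They are 180 kb for SEMA3C, 158 kb for NR3C1, 122 kb for BMP5, 77.1 kb for CD36 and 38.4 kb for COL3A1. The median over autosomal protein-coding genes is 24.5 kb. A long gene has more room for anchors, and gene length across all control-only anchors was not analysed here.

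Contacts between 2 control-only anchors mostly rested on single PETs, with 1112 of 1243 at 1 PET and 8 at 4 or more. After the contact with 7 PETs on chromosome 4 came 5 PETs on chromosome 14 between 72124889 to 72127164 and 72130695 to 72133125, and 5 PETs on chromosome 3 between 150156032 to 150162931 and 150164260 to 150169145. Then came 4 PETs on chromosome 5 between 142729479 to 142731823 and 142734524 to 142737565, within the glucocorticoid receptor gene NR3C1. A further 4 PETs on chromosome 4 joined 160191769 to 160198632 with 160216083 to 160221978. These 2 had the lowest deposited values among the 5 contacts with 4 PETs. Spans of the 5 contacts named ran from 5.39 to 23.8 kb, and none of them had a senescent interaction with anchors within 25 kb of both ends. Most contacts with both ends control-only lacked one too, since 17.9% of all 1243 had such a match. The contacts on chromosomes 14, 3 and 5 had 2, 4 and 2 senescent anchors within 25 kb.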

How the data were processed

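HiChIP for METTL3 was measured in 1 control and 1 senescent library of IMR90 cells. The submitters' processing notes name hg19 and HiC-Pro 3.1.0. How loops and anchors were called, whether duplicate pairs were dropped and which filters were set is not given in the sources used here. Neither file has a header line. Their whole number per interaction was taken as the deposited raw count of PETs, and their last value as the deposited p-value or q-value, without a statement of which it is.

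Distinct anchor intervals of both ends were pooled, and PETs and partners were summed per anchor (Python 3.11.15, numpy 2.4.6, pandas 2.3.3, scipy 1.17.1, figures with matplotlib 3.10.9). Overlap was at least 1 bp. Positions were read as half-open, since 93 control-only anchors ended or began exactly where a senescent anchor began or ended and none was 1 bp away, and are printed with the start counted from 1. Distances are between edges, spans between midpoints. Pairs of control anchors 5 kb to 2 Mb apart were counted as joined or not in distance classes. Overlap and distance code was tested on simulated data.

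With 1 library per group there is no p-value, and intervals cover counting error only. The PETs behind an anchor (median 2) limit the precision of each single site. The text names the 10 anchors with the most PETs, the 5 farthest, the 5 largest clusters, the 3 longest runs, the 5 strongest contacts between control-only anchors, and the autosomes with the 3 highest and 3 lowest shares. Ties at the last place were settled by partners for anchors, by PETs for clusters and by the deposited value for contacts. Members and lists were chosen with earlier results of these data known. Gene names at these places were added afterwards as background, with the gene's chromosome checked and its length read in RefSeq's GRCh38.p14; no coordinate was converted between builds. Alternatives on overlap, PET minimum, deposited value, distance and cluster window were tried.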

Additional observations from a re-analysis of the deposited data

How the results depend on the processing

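No paired analysis was possible because each group has 1 library and the labels carry no shared replicate numbers. Counting a senescent anchor within 5 kb as listed in both left 2362 control-only anchors, with a median distance of 21.2 kb, another control-only anchor within 100 kb for 55.4%, 34.0% control-only partners, a PET ratio of 0.776 and a width ratio of 0.960. Control anchors with at least 2 PETs gave 1882, 7.76 kb, 57.1%, 34.6%, 0.868 and 0.902 for the same measures in that order. Asking for 50% of the control anchor to be covered gave a distance of 7.73 kb, 66.6% with a neighbour, 41.6% control-only partners, and ratios of 0.908 for PETs and 0.970 for width. Anchors overlapped over less than 50% of their length counted as control-only there. They entered that median with no distance, which lowers it. Senescent anchors with at least 2 PETs gave 16.2 kb, 68.5%, 46.3% and a PET ratio of 0.802. A deposited value of at most 0.05 gave 11.7 kb, 53.1% and 39.6%. Between midpoints the median distance was 13.3 kb, the share with a neighbour was 48.8% within 50 kb and 80.7% within 250 kb, and the ratio of partners was 0.874. The ratios of PETs and of widths stayed below 1 in each of these alternatives. The count of control-only anchors stayed within 1.5 times in the alternatives not given here. Taking a shared edge position as overlap, an alternative chosen after seeing the data, left 3468 anchors (29.4% of the control anchors). Apart from the overlapped anchors that the 50% setting adds to the median distance, the causes of these moves were not tested. Single PETs hold 47.1% of the control-only anchors, which limits what can be said of any one of them.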

Other observations

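Chromosome X, which the autosomal rule leaves out, had 38 control anchors, of which 15 overlapped no senescent anchor (39.5%, 24.0 to 56.6%, exact Clopper-Pearson interval).

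Anchor edges often fell on the same position in both libraries. Of the anchors listed in both, 4769 of 8246 (57.8%, 56.8 to 58.9%) had a start or an end at exactly the position of an edge of a senescent anchor. Among the control-only anchors it was 93 of 3561 (2.61%), and these are the 93 that abut a senescent anchor. A shared start or shared end is an overlap, so the rule allows a control-only anchor no other kind of shared edge and fixes most of the gap between these shares.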
